A study of Strongylocentrotus purpuratus and Patiria miniata with 14 samples.

Results

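The *gata6* locus of the purple sea urchin *Strongylocentrotus purpuratus*, known in sea urchin work as *gatae*, was described from ATAC-seq peak lists of whole embryos. All listed peaks that overlap scaffold NW_022145613.1 of the Spur_5.0 assembly from 310000 to 390000 were taken, an 80 kb window chosen because it holds the 2 tested cis-regulatory elements of the gene, elements 24 and 10. The 8 sea urchin libraries listed 62 peaks there, of 280526 in all sea urchin lists and 652219 in the 14 lists of the series, which also covers the sea star. Joined where they overlapped by at least 1 bp, the 62 peaks formed 24 clusters, numbered C1 to C24 along the scaffold, of 115459 clusters in the sea urchin genome. The libraries came from wild-type embryos grown at 15°C and collected, with 2 replicates each, at 4 stages given in hours post fertilization (hpf). These were the early blastula at 11 hpf, the mesenchyme blastula at 24 hpf, the prism larva at 66 hpf and the pluteus larva at 72 hpf. The study also profiled the late gastrula of this species, which is not among these lists, so no stage between 24 and 66 hpf was covered here. Since no label says that the replicates came from separate cultures or parents, p-values measure the spread between these libraries, which could be technical. Whole embryos mix all cell types, so at any region fewer cells with open chromatin and less open chromatin per cell cannot be told apart.

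ATAC-seq maps accessible chromatin through the sites where a transposase can insert sequencing adapters, and an accessible region outside coding sequence is a candidate cis-regulatory element. GATA factors are zinc-finger transcription factors named after the DNA sequence that they bind, and the vertebrate members GATA4, GATA5 and GATA6 act in endoderm and heart formation. In the sea urchin, *gatae* is a regulatory gene of the endomesoderm, the territory that gives rise to the gut and to non-skeletal mesoderm, where it is linked with *otx* in a positive feedback. The gene table of Spur_5.0 lists it as GATAe, with a span from 329575 to 361799 (32225 bp) and no scaffold name. Element 24 (340816 to 341399, 584 bp) begins 11241 bp after the start of that span, and element 10 (357073 to 357746, 674 bp) ends 4053 bp before its end, so both lie within it, 15674 bp apart. The table gives neither strand nor exons, so whether a cluster was exonic, intronic or at the promoter was not determined here.

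The lists held 34923 and 25462 peaks at 11 hpf, 39511 and 31112 at 24 hpf, 35186 and 56853 at 66 hpf and 38010 and 19469 at 72 hpf. Each list ends at its own weakest q, between 0.0169 and 0.0451 over the 8 lists, so the absence of a peak means only that no call passed that threshold. Read counts were not used, and the depth behind each peak is unknown. Fold enrichment, the signal at the summit of a peak over its local background, is given as the peak caller wrote it, and the strength of a peak is otherwise given by its place in its own list when ranked by p.

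Most clusters of the window lay within the gene, whose tested elements the window was chosen to hold. In all, 15 clusters lay wholly inside the GATAe span and 1 crossed its end, while 3 lay before its start and 5 beyond its end. The span takes up 32225 bp of the 80 kb window. What share of all sea urchin clusters lies in gene spans was not determined here, so these counts have no background. In every library most of the clusters called overlapped the span, from 5 of 8 in mesenchyme blastula replicate 2 to 3 of 3 in early blastula replicate 2 and in pluteus replicate 2. Of the 24 clusters, 2 were called in all 8 libraries, against 2.65% of all sea urchin clusters. A further 4, absent from both early blastula lists, were called at each of the 3 later stages, against 11.1% of all clusters. That count rests on pluteus replicate 1, since none of the 4 was called in pluteus replicate 2, and without replicate 1 it is 0. Calls in a single library made up 12 of the 24, near the 55.4% seen over the genome. Of the 24, 5 were called in prism larva replicate 2 alone, the longest list, against 13.6% of all clusters. By stage, 6 of the 24 clusters were called in either replicate at 11 hpf (40.6% of all clusters), 11 at 24 hpf (39.5%), 17 at 66 hpf (52.8%) and 10 at 72 hpf (33.7%). Called in both replicates were 2 at 11 hpf (8.9%), 6 at 24 hpf (15.5%), 6 at 66 hpf (22.4%) and 3 at 72 hpf (11.5%). For comparison, 11252 successive tiles of 80 kb over the scaffolds held a median of 9 clusters (quartiles 4 and 16), and 4.58% of them held at least 24.

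**Figure D1:**
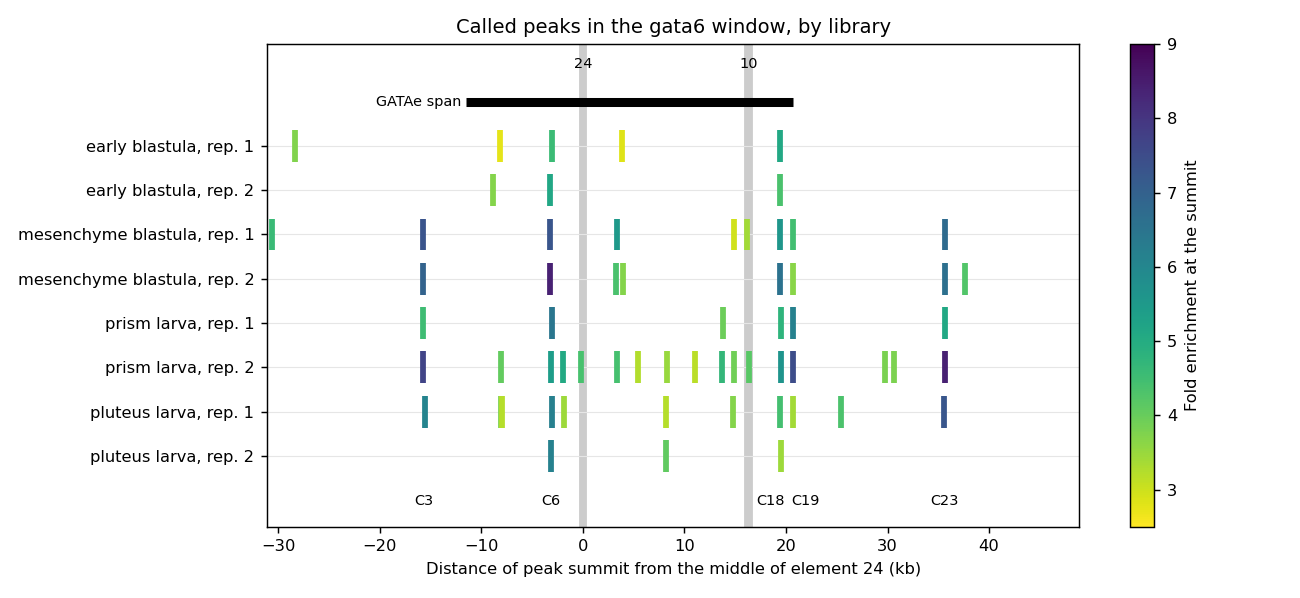
Each bar marks the summit of a listed peak, placed by its distance in kb from the middle of element 24 and coloured by fold enrichment (bars are wider than the peaks). Rows are the 8 libraries, grey bands are elements 24 and 10, the black line is the GATAe span, and C6 and C18 are the columns filled in all 8 rows, whereas the band of element 24 holds a bar in 1 row only.

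Cluster C6 (337817 to 338136), inside the gene and 2680 bp before element 24, was called in every library. Its fold enrichments were 4.58 and 5.14 at 11 hpf, 7.29 and 8.41 at 24 hpf, 6.44 and 5.41 at 66 hpf and 6.18 and 6.17 at 72 hpf. The early blastula values were the lowest of the 8 and the mesenchyme blastula values the highest, with no overlap between these 2 stages. Fold enrichment was also lower over the whole early blastula lists, whose medians were 4.20 and 4.33, while those of the 6 later lists lay between 5.06 and 5.34, and the part of this in the values of C6 was not tested. Within its own list the peak ranked in a narrow band, from the top 11.7% in early blastula replicate 2 to the top 26.5% in prism larva replicate 2. The summit took different positions. It lay at 337907 and 337897 at mesenchyme blastula, and at 338021, 337994, 338028 and 337955 in the 4 larval libraries, all of them further along the scaffold. The early blastula replicates differed from each other, at 338010 and 337904.

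Cluster C18 (360382 to 360740), also called in every library, lay inside the gene 2636 bp after element 10 and 849 bp before the next cluster, C19. Its fold enrichments were 5.09 and 4.37 at 11 hpf, 5.58 and 6.55 at 24 hpf, 4.77 and 5.63 at 66 hpf and 4.43 and 3.44 at 72 hpf. At early blastula this was the strongest peak of the window by p in both replicates, within the top 3.07% and 11.3% of their lists. Later it ranked within the top 16.5% and 9.77% (24 hpf), 34.9% and 18.3% (66 hpf) and 35.5% and 90.1% (72 hpf). These ranks come from lists that differ in length and make-up, and no stage order is read from them. By p the stages overlapped, with −log10 p of 15.9 and 11.2 at 11 hpf, 18.1 and 21.3 at 24 hpf, 11.6 and 21.8 at 66 hpf and 11.4 and 5.58 at 72 hpf. Pluteus replicate 2 was the lowest of the 8 libraries both by p and by fold enrichment. The peak was 306 and 318 bp wide at 11 hpf and 341 and 308 bp at 24 hpf. At 66 hpf it was 206 and 330 bp wide, and at 72 hpf 279 and 126 bp. Its summits stayed within 72 bp over the 8 libraries.

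Cluster C19 (361589 to 361974) crossed the end of the GATAe span at 361799, and its summits lay from 45 bp before to 4 bp after that end (361754 to 361803). It was listed in neither early blastula replicate. Its fold enrichments were 4.46 and 3.65 at 24 hpf, 6.17 and 7.50 at 66 hpf, and 3.40 in the single pluteus library that called it, replicate 1. Both prism larva values were above every other value of the cluster. It ranked within the top 19.2% and 9.13% at prism larva, the top 31.8% and 57.3% at mesenchyme blastula and the top 70.3% in the pluteus library. As for C18, no stage order is read from ranks in lists that differ in length and make-up. The prism larva replicate 2 peak had the smallest p of the 62 window peaks (−log10 p of 32.7).

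Clusters C3 and C23 lay outside the span, on opposite sides of the gene, and showed the same calls as C19: both replicates at mesenchyme blastula and prism larva, pluteus replicate 1, and no early blastula library. C3 (325263 to 325609) ended 3966 bp before the start of the span. Its fold enrichments were 7.31 and 6.94 at 24 hpf, 4.51 and 7.69 at 66 hpf and 6.07 in pluteus replicate 1. The prism larva replicates therefore spanned the whole range of the cluster. C23 (376572 to 376848) began 14773 bp beyond the end of the span and had fold enrichments of 6.76 and 6.63 at 24 hpf, 5.11 and 8.39 at 66 hpf and 7.26 in pluteus replicate 1. Here too the lowest and the highest value were the replicates of prism larva, and no later stage stood apart from another. In both clusters the pluteus summit lay away from the rest, at 325518 against 325386 to 325394 for C3, and at 376627 against 376770 to 376781 for C23. Which gene C3 or C23 acts on was not determined here.

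**Figure D2:**
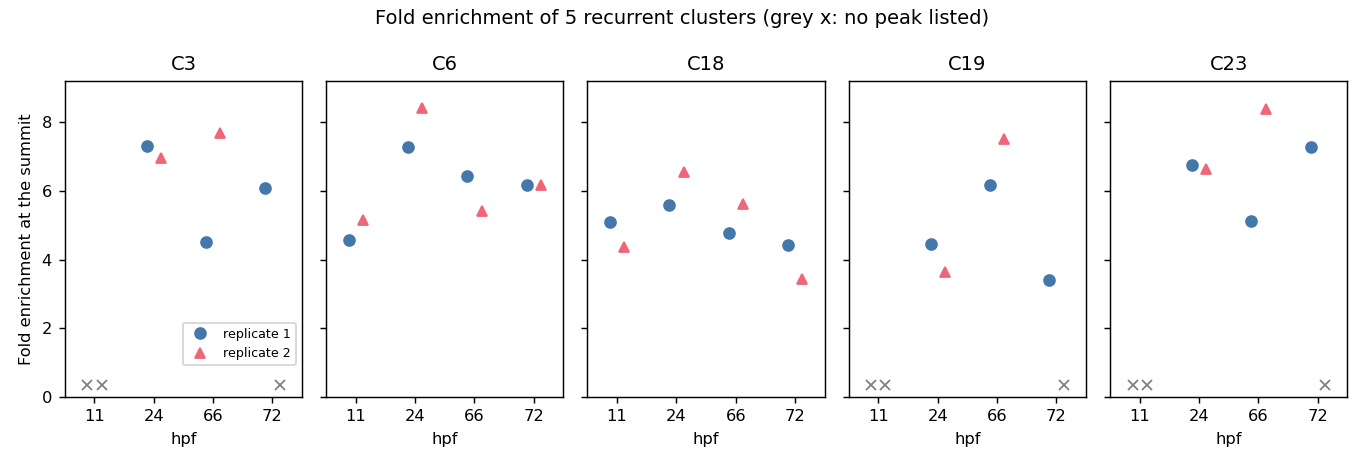
Fold enrichment at the summit (y axis) of the 5 clusters called in 5 or more libraries, by hours post fertilization (x axis, evenly spaced), with circles for replicate 1, triangles for replicate 2 and grey crosses where no peak was listed. C6 and C18 have points at all 4 stages, C3, C19 and C23 none at 11 hpf, and C19 is highest at 66 hpf (6.17 and 7.50).

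The fourth cluster called at each later stage and not at early blastula, C16 (355726 to 356092), was called in 1 replicate per stage. Its fold enrichments were 2.97 in mesenchyme blastula replicate 1, 3.90 in prism larva replicate 2 and 3.72 in pluteus replicate 1, and these peaks ranked within the top 94.5%, 42.8% and 62.5% of their lists. It lay 981 bp before element 10. Cluster C15 (354671 to 354970) was the only one called in both replicates of a single stage and in no other library, a pattern shown by 6.12% of all clusters. It was a prism larva cluster, with fold enrichments of 3.97 and 4.71 and ranks within the top 67.2% and 33.6%.

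At the tested elements themselves peaks were few. Element 24 was overlapped by a peak in 1 of 8 libraries, prism larva replicate 2, where cluster C8 ran from 340839 to 341120, wholly inside the element, with its summit at 340937. That peak had a fold enrichment of 4.40 and a q of 7.27e-11, and ranked 20784 of 56853 (top 36.6%). The nearest cluster was C7 (339106 to 339355), which ended 1461 bp before the element and was called in prism larva replicate 2 and pluteus replicate 1 with fold enrichments of 5.08 and 3.46. Element 10 was overlapped in 2 libraries of different stages, by the peaks of cluster C17 (357183 to 357574). In mesenchyme blastula replicate 1 the peak had a fold enrichment of 3.40 (top 63.2%, summit at 357269), and in prism larva replicate 2 one of 4.19 (top 32.4%, summit at 357424). The 2 summits were on different parts of the element, 196 and 351 bp from its start. The other replicate of each of these stages listed no peak at either element, and neither element was overlapped at early blastula or at pluteus larva.

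The remaining 15 clusters, C7 among them, held 23 peaks, of which 8 were in prism larva replicate 2. These 23 peaks were weaker and narrower than the 39 peaks of the other 9 clusters described above. Their median fold enrichment was 3.77 (2.76 to 5.51) against 5.14 (2.97 to 8.41), and their median width 162 bp against 279 bp. These medians describe clusters that were set apart partly by how often they were called, and no test was made. Only C9 (344304 to 344597), 2905 bp after element 24, was called in both mesenchyme blastula replicates, with fold enrichments of 5.51 and 4.38, and again in prism larva replicate 2 with 4.43. C13 (349213 to 349471) was called in both pluteus replicates (3.23 and 4.09) and in prism larva replicate 2 (3.49). The early blastula lists held 4 of the 23 peaks, in C2, C4, C5 and C10, and none of the 4 ranked within the top 60% of its list.

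**Figure D3:**
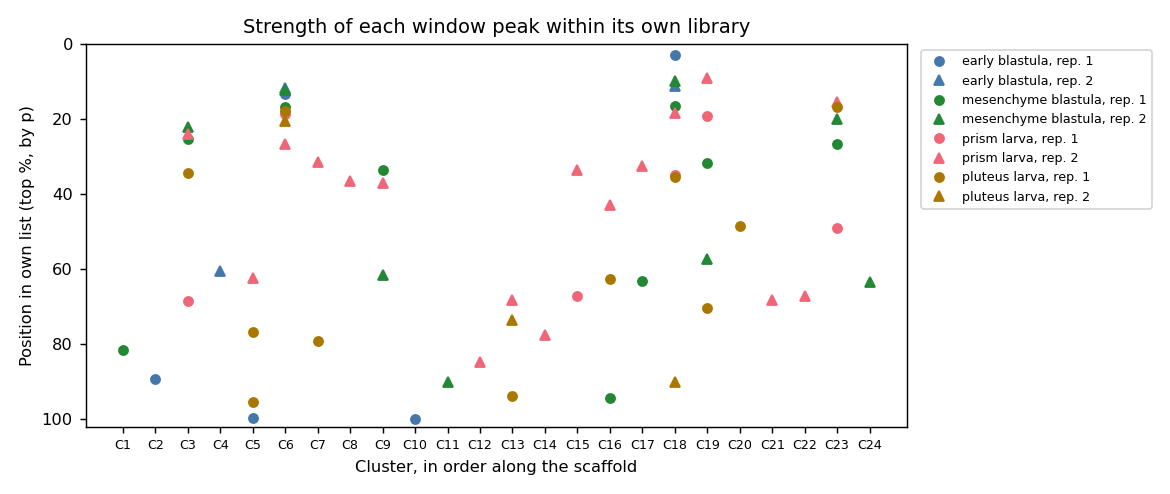
Place of each of the 62 window peaks in its own list (y axis, top percent by p, with the strongest at the top) for clusters C1 to C24 in order along the scaffold (x axis), coloured by stage with circles for replicate 1 and triangles for replicate 2. C6 and C18 reach the upper part in nearly all libraries, the lowest point of C18 being pluteus replicate 2 at 90.1%, and the clusters between C10 and C17 hold no peak above the top 32%.

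Peaks that overlapped between the replicates of a stage were also ranked together, and a region was taken as replicated where its irreproducible discovery rate, or IDR, did not exceed 0.1. At early blastula these were C6 (IDR 0.0541) and C18 (0.0123). At mesenchyme blastula they were C18 (0.00209), C6 (0.00256), C3 (0.0198) and C23 (0.0225), while C19 (0.145) and C9 (0.179) did not pass. At prism larva they were C19 (0.000366), C18 (0.00971), C6 (0.0269) and C23 (0.0563), while C15 (0.141) and C3 (0.241) did not. At pluteus larva only C6 (0.0182) passed, and C18 (0.303) and C13 (0.330) did not. Over the genome, the share of overlapping pairs that passed was 29.4% at 11 hpf, 57.9% at 24 hpf, 60.4% at 66 hpf and 55.5% at 72 hpf, beside 2 of 2, 4 of 6, 4 of 6 and 1 of 3 pairs in the window. C6 was therefore the only cluster replicated at all 4 stages at this threshold, and neither tested element held a replicated region at any of these 4 stages. In the window, 8 of 24 clusters were called in both replicates of some stage, against 31.7% of all clusters.

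Numbers of calls were compared between stages over libraries. Clusters called in the window numbered 9 and 8 at 24 hpf, 6 and 17 at 66 hpf and 10 and 3 at 72 hpf, against 5 and 3 at early blastula. The later stages averaged 8.83 ± 4.71 clusters (SD, n = 6) and early blastula 4 ± 1.41 (SD, n = 2), with 5 of 6 later libraries above both early ones. The difference of 4.83 had a two-sided exact permutation p of 0.25 (Benjamini-Hochberg adjusted p = 0.5 over 4 tests). With so few libraries no adjusted p of the 4 tests could fall under 0.05, so they cannot decide whether the stages differ. Per 10000 listed peaks, to allow for the unequal lists, the window held 2.28 and 2.57 peaks at 24 hpf, 1.71 and 2.99 at 66 hpf and 2.89 and 1.54 at 72 hpf, against 1.43 and 1.18 at early blastula. All 6 later libraries were above both early blastula libraries, with means of 2.33 ± 0.605 (SD, n = 6) and 1.305 ± 0.179 (SD, n = 2). The difference of 1.02 had an exact permutation p of 0.0714 and an adjusted p of 0.286, where 0.0357 is the smallest p that 28 divisions of the libraries allow. The larvae averaged 2.28 ± 0.765 (SD, n = 4) and mesenchyme blastula 2.42 ± 0.208 (SD, n = 2), a difference of -0.14 (exact permutation p = 0.8, adjusted p = 0.933). For clusters the same comparison gave 9 ± 6.06 (SD, n = 4) in larvae and 8.5 ± 0.707 (SD, n = 2) at mesenchyme blastula (exact permutation p = 0.933, adjusted p = 0.933), and 15 divisions cannot give a p under 0.0667. Without prism larva replicate 2 that difference was -1.83 clusters. Replicates of 1 stage also differed widely, at 6 and 17 clusters for prism larva and 10 and 3 for pluteus larva, and the library of each pair with fewer clusters had the shorter list. With every list limited to its 19469 strongest peaks, the counts were 6 and 6 at 24 hpf, 4 and 8 at 66 hpf and 5 and 3 at 72 hpf, against 2 and 3 at 11 hpf. The gap between the replicates was then smaller at both larval stages but did not close.

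**Figure D4:**
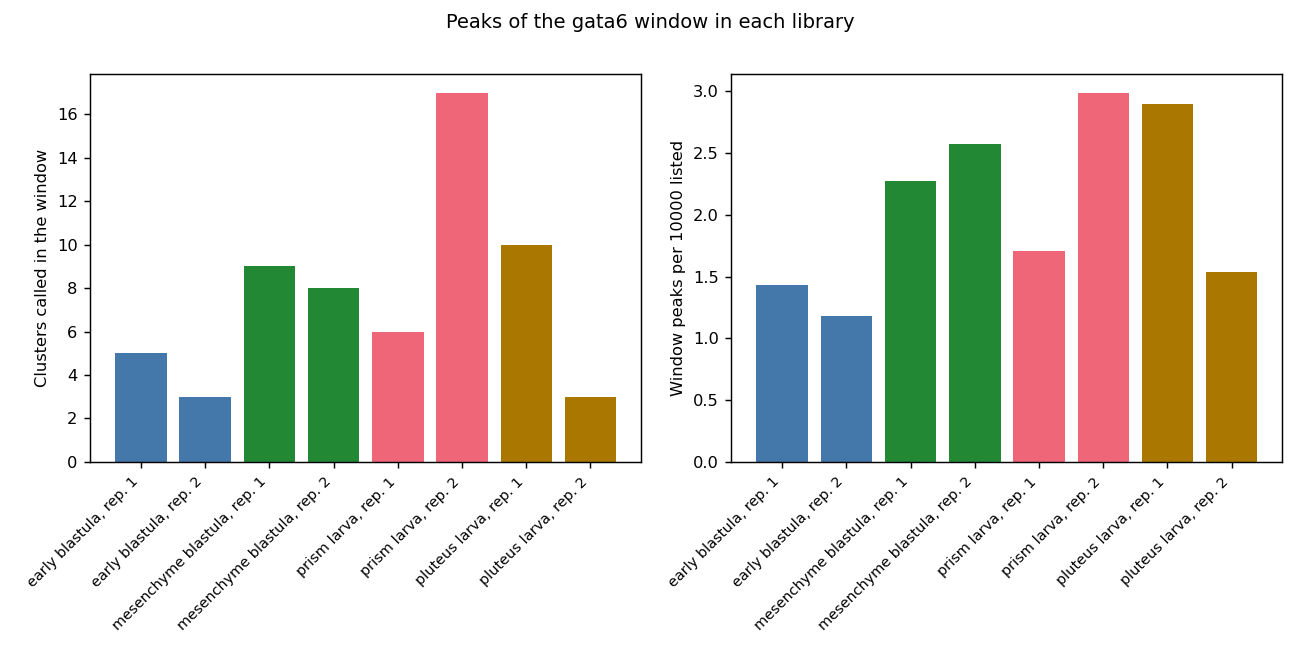
Number of the 24 window clusters called (left) and window peaks per 10000 listed peaks (right) in each of the 8 libraries, as bars from 0 coloured by stage. Prism larva replicate 2 is highest in both panels (17 clusters and 2.99 peaks per 10000), and the early blastula libraries are lowest in the right panel (1.43 and 1.18).

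Both *gata6* elements were among the least often called of the tested elements of endoderm genes. The list comprised 16 uniquely mapping elements of 7 genes: *gata6*, *prdm1* (*blimp1*, a transcriptional repressor), *foxa1* (a forkhead factor of endoderm formation), *Hbox7* (*hox11/13b*, a homeobox gene of the posterior endoderm), *wnt8a* (a signalling ligand of the early endomesoderm), *otx2* (a homeobox gene that activates *gatae*) and *pdx1l* (a homeobox gene of the gut). Of these, 15 had a peak in at least 1 library, the exception being element C of *wnt8a*. Elements CR2 and CR5 of *prdm1*, K of *foxa1*, Otx15 of *otx2* and CRM5 of *pdx1l* had peaks in 8 libraries, A of *wnt8a* in 7 and J and I of *foxa1* in 6, whereas elements 10 and 24 had peaks in 2 and 1. By library, 13 and 11 of the 16 had a peak at 24 hpf, 12 and 15 at 66 hpf and 12 and 9 at 72 hpf, against 6 and 5 at early blastula. The 25 tested elements of other genes were likewise called least often at early blastula, with 9 and 7 at 24 hpf, 8 and 11 at 66 hpf and 10 and 6 at 72 hpf, against 3 and 3. Elements differ in length, and those of 1 gene are not independent (ME of *Hbox7* lies within E), so no test was made.

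The calls at element 10 were the same in all 8 libraries as those at 3 other tested elements, L of *Hbox7*, C of *tbr1* and C of LOC115920638 (*KirrelL*), each called in mesenchyme blastula replicate 1 and prism larva replicate 2 only. Element 24, with its single call, matched 17 elements in 7 of 8 libraries, the first of them in table order being L of *Hbox7*, R11 of *dll1.a*, element 10 of *gata6* and gamma and B of *tbr1*, and 12 of the 41 uniquely mapping elements had no peak in any library. These likenesses over 8 libraries are descriptions of sparse calls and say nothing of shared control.

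**Figure D5:**
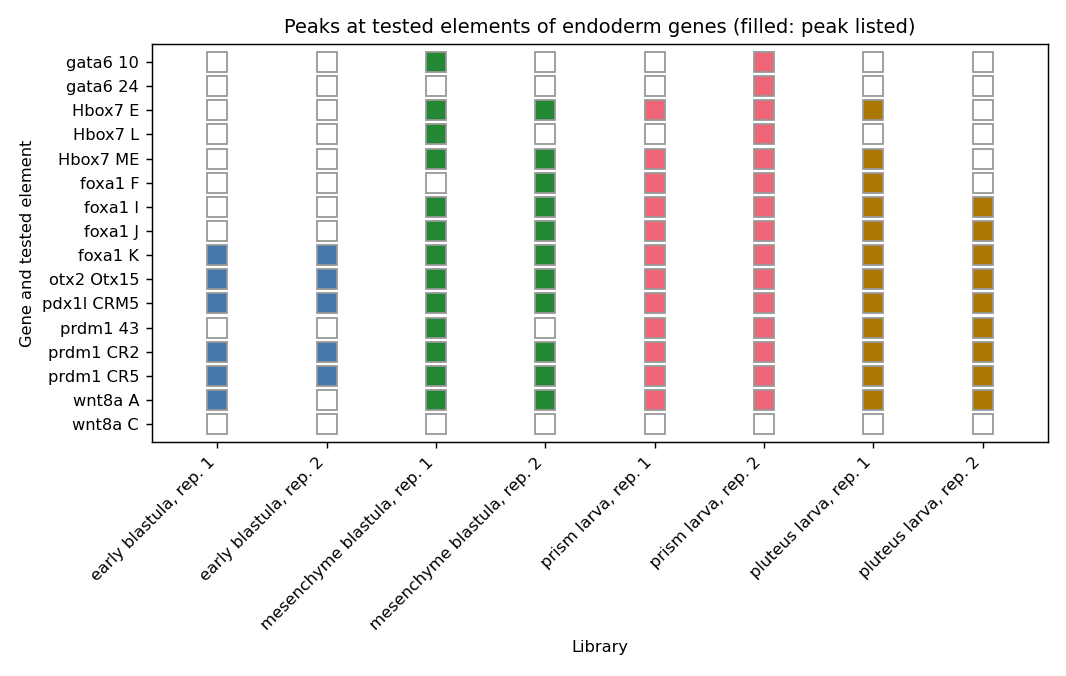
Calls at the 16 tested elements of 7 endoderm genes (rows) in each of the 8 libraries (columns), where a filled square means that at least 1 listed peak overlaps the element. The rows of *gata6* have 2 filled squares for element 10 and 1 for element 24, against 8 in 5 of the other rows.

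Windows of the same length around the elements of the other endoderm genes gave a measure of how the *gata6* window compares. With its 24 clusters it lay within their range, above *prdm1* (23), *wnt8a* (19) and *pdx1l* (14) and below *Hbox7* (27), *otx2* (39) and *foxa1* (45). Clusters called in all 8 libraries numbered 2 at *gata6* and 1 to 5 at the others, and clusters called at each later stage and not at early blastula numbered 4 at *gata6* and 1 to 11 at the others. The range at *gata6* over libraries, from 3 in early blastula replicate 2 and pluteus replicate 2 to 17 in prism larva replicate 2, was matched by the same library holding the most clusters at 5 of the 6 other genes, the exception being *prdm1*, where it was mesenchyme blastula replicate 1 (14).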

How the data were processed

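ATAC-seq was performed on whole embryos of 8 sea urchin and 6 sea star libraries, and only the sea urchin lists were analysed here. According to the study's methods, the authors aligned reads with Bowtie2, removed duplicates with SAMtools, offset read starts for the transposase, kept short inserts and called peaks with MACS2 in each replicate on its own. Each peak of the deposited lists carries a score (10 times −log10 q), a fold enrichment ratio, p-values and q-values as −log10, and a summit position. Short inserts favour nucleosome-free DNA. The lists differ in length and in their weakest q, so presence of a call depends on the list. Longer lists were not weaker by median fold enrichment, at 5.08 in the longest (prism larva replicate 2) and 5.11 in the shortest (pluteus replicate 2).

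Peaks were joined at an overlap of at least 1 bp, which was checked against bedtools 2.31.1. IDR, the ranking model of the study (threshold 0.1), was written anew, because the program is not installed here, and tested on simulated data. Exact permutation tests were run over libraries. Python 3.11.15, numpy 2.4.6, pandas 2.3.3, scipy 1.17.1 and matplotlib 3.10.9 were used. Alternatives were a q of at most 0.001, equal list lengths, joining within 100 bp, a window 20 kb longer at each end, IDR of at most 0.05 or none, overlaps of 50%, summits, each replicate left out, and the replicate number as a block. The window, the lists and the tests were chosen with earlier results of these data known. Values in full were given for clusters at the tested elements, called in all libraries, called at each later stage but not at early blastula, or called in both replicates of a single stage. Element positions were taken from the study's table of tested elements, and its gene name *gata6* was matched to GATAe of the Spur_5.0 gene table through the element names. DNA sequences were not analysed here.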

Additional observations from a re-analysis of the deposited data

How the results depend on the processing

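The 2 clusters called in all libraries, C6 and C18, were 2 in number under each of the 12 alternatives run. Only the q of at most 0.001 and the equal lists remove peaks within a library, so the other alternatives were no test of whether these 2 hold. At a q of at most 0.001, peaks were still listed at element 24 in 1 library and at element 10 in 2. With equal numbers of top peaks (19469 per list), the window held 12 clusters, of which 2 were called at each later stage and not at early blastula. Peaks were then listed at element 24 in 0 libraries and at element 10 in 1, since fewer peaks were compared. The lost peaks ranked 20784 (element 24, prism larva replicate 2) and 24976 (element 10, mesenchyme blastula replicate 1) in their lists. The larvae minus mesenchyme blastula difference in clusters was then -1 and so reversed. In the window 20 kb longer at each end, 7 clusters were called at each later stage and not at early blastula. At an IDR of at most 0.05, 1 replicated region, C18, was left at early blastula, so no cluster was then replicated at all 4 stages. With no IDR there were 3 regions at pluteus larva. With 1 replicate left out, clusters in the window numbered 20 to 24, and clusters of the later stages only 0 to 4, with 0 reached without pluteus replicate 1, since all 4 lack a peak in pluteus replicate 2. Libraries with a peak numbered 0 to 1 at element 24, with 0 without prism larva replicate 2, and 1 to 2 at element 10, with 1 without that library or without mesenchyme blastula replicate 1. The larvae minus mesenchyme blastula difference ranged from -0.38 to 0.11 peaks per 10000 and from -1.83 to 2.5 clusters, so its sign depended on single libraries. The later stages minus early blastula difference kept its sign in every alternative run. It was 1.25 peaks per 10000 at a q of at most 0.001 (exact permutation p = 0.0357, adjusted p = 0.143), 1.46 with equal lists (p = 0.143, adjusted p = 0.286) and 2.19 in the longer window (p = 0.0357, adjusted p = 0.143). With 1 replicate left out it was 0.893 to 1.18 peaks per 10000 (exact permutation p from 0.0476 to 0.286, adjusted p at least 0.19) and 3.4 to 6 clusters. With the replicate number as a block, the differences were 1.02 and -0.14 peaks per 10000 and 4.83 and 0.5 clusters, with exact permutation p of 0.125, 0.889, 0.313 and 0.889. With or without the block no adjusted p could fall under 0.05, so the unchanged outcome says nothing of stability. Nothing in the labels pairs the replicates, and same-numbered libraries did not deviate together (r of -0.0671 to 0.0440 between stages over 115459 clusters). The lists carry no depth, which limits every statement to presence in a thresholded list.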
